A study of Homo sapiens with 4 samples.

Results

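Genes of the intraflagellar transport (IFT) complexes and of the BBSome were examined in NK-92 cells, a human natural killer (NK) cell line grown with IL-2, with and without knockdown of ADAR1, the enzyme that turns adenosine into inosine in double-stranded RNA. The 31 genes were taken by name, by a rule that uses no measured value: 13 subunits of IFT complex B, 6 of IFT complex A, 8 of the BBSome, the GTPase ARL6 that recruits the BBSome, and 3 chaperonins. Further IFT-B subunits outside this list are described beside it. Each was found by its Ensembl identifier among the 20323 genes of the table. The NK scramble group held 2 libraries of cells transduced with lentivirus carrying a scrambled shRNA, and the NK shADAR1 group held 2 libraries of cells transduced with lentivirus carrying an shRNA against ADAR1. All 4 libraries came from this 1 cell line, received virus with polybrene, and are described as independent biological replicates. The knockdown libraries are numbered shADAR1-1 and shADAR1-2, which are also names of hairpins in the study, and its text names shADAR1-2 cells for the sequencing. Whether both libraries carried the same hairpin or each a different one cannot be told from these sources. Bulk mRNA, selected with oligo(dT), was sequenced, and each library summed to 37881704 to 39960491 estimated counts, which are fractional where reads were shared between genes.

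The targeted gene was measured first. ADAR stood at 655 and 682 CPM (counts scaled to library size) in the NK scramble libraries and at 575 and 482 CPM in the NK shADAR1 libraries. Both knockdown libraries were below both controls, and the log2 fold change was -0.34 (SE 0.20), with an adjusted p of 1.00 in edgeR's quasi-likelihood test. Among the 11810 genes tested with edgeR, 0 (0.00%) passed an adjusted p of 0.05 with a fold change of at least 1.5, and 293 (2.48%) had an unadjusted p under 0.05. DESeq2 called 0 genes by the adjusted p as well, and 289 had an unadjusted p under 0.05. The study itself reported differentially expressed genes with DESeq2 at the same thresholds, and why the calls differ was not tested. It also reported the ADAR1 knockdown in NK-92 cells by qRT-PCR and western blotting.

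A primary cilium is a microtubule-based projection that carries signaling receptors. IFT trains move cargo along it: IFT-B travels outward with kinesin-2, IFT-A is needed for the return journey with dynein-2 and for entry of membrane proteins, and the BBSome is an adaptor that takes receptors out of the cilium. Lymphocytes have no primary cilium, but in T cells some IFT subunits, IFT20 among them, are known to serve the traffic of receptors to the immune synapse. Loss of single members causes Bardet-Biedl syndrome and skeletal ciliopathies.

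Many cilium genes carry an X-box in their promoter, the palindromic motif bound by RFX transcription factors. Its consensus was searched as GT, CC, GG and AC in that order with any 2 bases between each pair and the next, 14 bases that read the same way on both strands, in the RefSeq promoters (GRCh38.p14) from 250 bases before to 50 bases after each gene's start. Matches were found in 4 of the 28 members with a promoter entry (14.3%) and in 685 of 27305 genes overall (2.51%). Of the other cilium genes described below, 6 of 56 with an entry (10.7%) had a match. IFT22, WDR35 and BBS9 had no entry. The 4 matches are shown as a sequence feature that these members share and that did not enter their choice, with the motif in capitals and 8 bases on each side, 5′ to 3′ on the gene's strand.
ARL6, chr3:97764726-97764755, plus strand: aagctcctGTTGCCAAGGGAACggtgcctg
IFT57, chr3:108222433-108222462, minus strand: ggagtctaGTTTCCCTGGTGACggattgtc
WDR19, chr4:39182458-39182487, plus strand: ctcgcgcgGTCTCCTGGGTGACgggaacgc
BBIP1, chr10:110919186-110919215, minus strand: ggcttcctGTTTCCAGGGTGACgtagattt
The motif began 24 bases before the RefSeq gene start in ARL6, 30 in IFT57, 63 in WDR19 and 27 in BBIP1, and each window lay within the span that GENCODE 29 gives the gene. A match describes letters only. These 4 genes had log2 fold changes of 0.04, -0.21, 0.52 and 0.12 in the same order, and none passed the test. The RFX factors RFX3, which acts on cilium genes, and RFX5, known for MHC class II promoters, had log2 fold changes of 0.03 and 0.02. RFX1, RFX2 and RFX7 had -0.03 (SE 0.29), -0.13 (SE 0.48) and 0.37 (SE 0.25).

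The 31 genes were expressed at low levels in these cells. Levels between genes are compared in FPKM, which divides by transcript length. The median of the members' mean FPKM over the 4 libraries was 3.40, against 11.3 for all genes tested, and 3 members exceeded that median. These were IFT52 (17.3 FPKM), IFT46 (16.5) and the IFT-A subunit IFT122 (14.3). In total 28 members averaged at least 1 FPKM, and the 3 below it were BBS12 (0.861), WDR35 (0.362) and BBS5 (0.132). All 31 passed the filter on low counts. By summed level, IFT-B1 subunits gave 61.2 and 59.2 FPKM in NK scramble, compared with 61.4 and 66.9 FPKM in NK shADAR1. The BBSome gave 28.9 and 29.5 FPKM against 29.4 and 31.5 FPKM. Both sums of the knockdown group lay above both control sums for IFT-B1, but for the BBSome the groups overlapped.

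**Figure D1:**
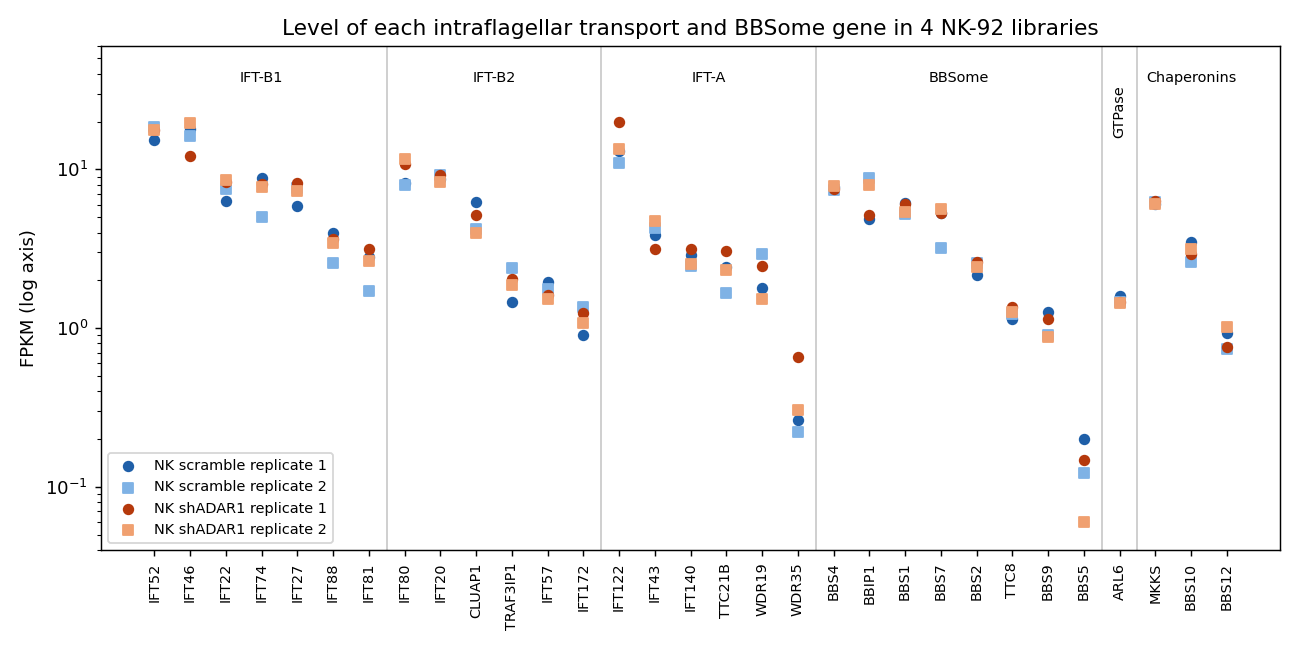
FPKM of each member in each library, on a log axis, grouped by complex. IFT52, IFT46 and IFT122 lie highest at means of 17.3, 16.5 and 14.3 FPKM, BBS5 lies lowest at 0.132 FPKM, and the symbols of the NK scramble and NK shADAR1 libraries are intermixed for most genes.

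When NK shADAR1 was compared with NK scramble, 0 of the 31 genes were called and 0 had an unadjusted p under 0.05 in edgeR or DESeq2. In edgeR 22 had a log2 fold change above 0 and 9 below, with a median of 0.065 and a range from -0.66 to 0.52, where 50.0% of all genes tested lay above 0 and their median was 2.8e-05. Every member had an adjusted p of 1.00 in edgeR, and the smallest unadjusted p was 0.126, for WDR19. The groups did not overlap, with both NK shADAR1 libraries higher, in 6 members, IFT22, IFT80, IFT172, IFT122, BBS4 and BBS7. That pattern was found in 13.3% of all genes tested. Both knockdown libraries were lower in 0 members, against 12.6% of all genes. These patterns were read in CPM. On FPKM the groups overlapped for IFT172, BBS4 and BBS7, while both knockdown libraries were higher for WDR35 and TTC8. Both knockdown libraries were lower on FPKM for IFT57 and ARL6. The half-width of the 95% confidence interval of a member's log2 fold change ran from 0.446 to 1.48, with a median of 0.592, so differences smaller than this could not be told from 0 in these libraries. In bulk RNA, fewer expressing cells and less RNA per cell cannot be told apart.

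**Figure D2:**
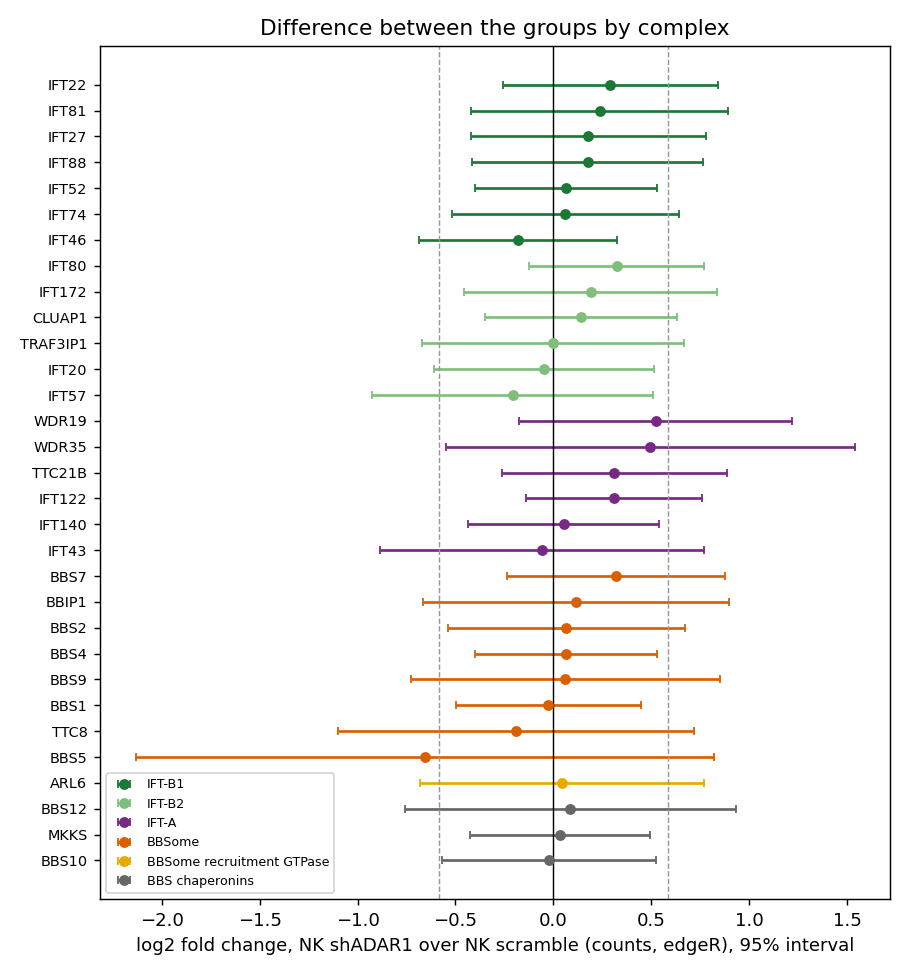
Log2 fold change of each member, NK shADAR1 over NK scramble, with the 95% confidence interval from edgeR, grouped by complex. All 31 intervals cross 0, from BBS5 at -0.66 to WDR19 at 0.52.

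IFT-B consists of a core, IFT-B1, and a peripheral part, IFT-B2. Of the 7 IFT-B1 members, 6 had a log2 fold change above 0, the median was 0.18, and none passed the test. Over all 13 IFT-B members the median was 0.14, and 0.04 without the second NK scramble library. IFT52, a scaffold of the core and the most abundant member, was measured at 24.7 and 31.1 CPM in NK scramble, compared with 28.3 and 30.0 CPM in NK shADAR1. Its log2 fold change was 0.065 (SE 0.21), and both knockdown values fell between the controls. IFT46, its partner in the core, stood at 25.4 and 26.6 CPM in the controls and at 19.0 and 27.0 CPM in the knockdown, with a log2 fold change of -0.18 (SE 0.23). A single knockdown library was low and the other was above both controls. IFT22, the small GTPase of the core, had 7.84 and 9.72 CPM in NK scramble, compared with 10.1 and 11.4 CPM in NK shADAR1, with a log2 fold change of 0.29 (SE 0.25). Both knockdown values were higher, and the gap between the nearest values of the groups was smaller than the gap between the controls. The tubulin-binding pair IFT74 and IFT81 had log2 fold changes of 0.06 and 0.24. IFT88, whose mutation in mice causes polycystic kidneys, and the GTPase IFT27 both had 0.18.

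IFT-B2 held 3 members above 0 and 3 below, with a median of 0.071. IFT80, whose mutation causes a skeletal ciliopathy, had 29.6 and 25.2 CPM in NK scramble, compared with 34.6 and 33.95 CPM in NK shADAR1. Both knockdown libraries were above both controls, and the log2 fold change was 0.32 (SE 0.20, 95% confidence interval -0.12 to 0.77) with an unadjusted p of 0.137 in edgeR. IFT80 shares up to 381 contiguous exonic bases with SMC4 on the opposite strand, a condensin gene with 13890 and 10494 estimated counts in NK scramble, compared with 17199 and 12855 in NK shADAR1. The counting is not stated to use strand, so reads from the shared stretch cannot be told apart, and their part in the IFT80 value was not tested. IFT20, which links IFT to the Golgi, was measured at 7.71 and 8.32 CPM against 7.73 and 7.79 CPM, a log2 fold change of -0.047 (SE 0.25). TRAF3IP1 (IFT54) was nearest to no difference of all members, at -0.0011 (SE 0.30), although its control libraries stood apart at 5.78 and 9.70 CPM while the knockdown libraries had 7.73 and 7.74 CPM. IFT172, the largest IFT-B subunit, and CLUAP1 (IFT38) had log2 fold changes of 0.19 and 0.14, and IFT57 had -0.21.

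IFT-A had the highest median log2 fold change of the complexes, at 0.31, with 5 of 6 members above 0 and none past the test. Leaving out 1 library at a time moved this median between 0.13, without the first NK shADAR1 library, and 0.48, without the first NK scramble library. IFT122, a core IFT-A subunit, on chromosome 3 from 129440036 to 129520507 on the plus strand (GENCODE 29, GRCh38), had 38.3 and 35.3 CPM in NK scramble, compared with 50.1 and 41.3 CPM in NK shADAR1. Both knockdown libraries were above both controls, with a log2 fold change of 0.31 (SE 0.20, interval -0.14 to 0.76) and an unadjusted p of 0.154 in edgeR. WDR19 (IFT144), on chromosome 4 from 39182404 to 39285810, had 7.04 and 4.84 CPM in the controls and 10.3 and 6.77 CPM in the knockdown. Its log2 fold change of 0.52 (SE 0.31, interval -0.17 to 1.22), a 1.44-fold difference, was the largest above 0, and the second knockdown library was below the first control. TTC21B (IFT139), a peripheral subunit, stood at 14.6 and 10.1 CPM in NK scramble, compared with 17.4 and 13.2 CPM in NK shADAR1, a log2 fold change of 0.31 (SE 0.26) with overlapping groups. WDR35 (IFT121) was detected with 72 and 56 estimated counts in the controls and 121 and 55 in the knockdown, so its log2 fold change of 0.50 (SE 0.47) rested on 1 library and was -0.13 without it. IFT140 had 0.05. IFT43, a small peripheral subunit, had 3.18 and 3.66 CPM against 2.52 and 4.07 CPM and a log2 fold change of -0.056 (SE 0.37), the knockdown libraries lying outside the controls on both sides.

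The summed IFT-A level was 24.3 and 22.5 FPKM in NK scramble, compared with 32.3 and 24.8 FPKM in NK shADAR1. Both knockdown sums were above both controls, and their SD of 5.34 FPKM was larger than the distance between the group means of 23.4 and 28.5 FPKM. In 5 of the 6 IFT-A genes the second library was lower than the first in NK scramble and in NK shADAR1.

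Of the 8 BBSome subunits, 5 had a log2 fold change above 0 and 3 below, with a median of 0.063. That median was -0.04 without the first NK scramble library and also without the first NK shADAR1 library. BBS4, the subunit that binds PCM1 at centriolar satellites, had 16.7 and 16.5 CPM in NK scramble, compared with 16.8 and 18.0 CPM in NK shADAR1, a log2 fold change of 0.065 (SE 0.21). The groups did not overlap, and the nearest values of the 2 groups were 16.7 and 16.8 CPM. BBS7, a subunit of the BBSome core, had 16.5 and 10.7 CPM in the controls and 16.7 and 17.3 CPM in the knockdown, with a log2 fold change of 0.32 (SE 0.25) and an unadjusted p of 0.232 in edgeR. The second control library was the low one, the first lay just below both knockdown libraries, and without the second the log2 fold change was 0.04. BBIP1, the smallest subunit, varied within each group, with 5.33 and 8.02 CPM against 5.03 and 9.45 CPM and a log2 fold change of 0.12 (SE 0.35). It shares up to 1277 exonic bases with PDCD4 on the opposite strand. BBS5, a lipid-binding subunit, was the least abundant member, with 24.4 and 15.3 estimated counts in NK scramble, compared with 17.3 and 7.21 in NK shADAR1, and its log2 fold change of -0.66 (SE 0.67) carried the widest interval, from -2.13 to 0.82. BBS1, BBS2, BBS9 and TTC8 (BBS8) had log2 fold changes of -0.03, 0.07, 0.06 and -0.19.

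ARL6 (BBS3), the GTPase that recruits the BBSome to membranes, was measured at 1.59 and 1.47 FPKM in NK scramble, compared with 1.47 and 1.43 FPKM in NK shADAR1. All 4 values lay close together. The log2 fold change from counts was 0.04 (SE 0.33), and the difference on log2(FPKM + 0.1) was -0.073. The chaperonin-like genes, whose products assemble the BBSome, had log2 fold changes of 0.03 for MKKS (BBS6), -0.02 for BBS10 and 0.09 for BBS12. MKKS, the most abundant of them, stood at 17.8 and 19.9 CPM in the controls and 19.1 and 19.5 CPM in the knockdown, and BBS10 at 12.4 and 9.52 CPM in the controls and 10.04 and 11.5 CPM in the knockdown, with both knockdown libraries inside the range of the controls for each gene.

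Replicate libraries differed from each other about as much as the groups did, or more. The measures are on unlike scales, because means of a group vary less than single libraries. The shares below are therefore read only beside those of all genes. The median absolute log2 fold change of the members between groups was 0.143, against 0.145 for all genes. Between the 2 NK scramble libraries the median absolute log2 difference was 0.310 for the members and 0.259 for all genes, and between the 2 NK shADAR1 libraries it was 0.179 and 0.267. The control libraries were further apart than the group means in 23 of the 31 members (74.2%), compared with 67.5% of all genes, and the knockdown libraries in 20 (64.5%), compared with 68.2%. The first library over the second differed in the same direction in both groups for 23 members (74.2%), against 59.8% of all genes. Across the 31 genes, which share the same 4 libraries, Pearson's r between the 2 differences was 0.485. Across all genes tested, with 0.01 CPM added to allow for values of 0, it was 0.288. With a larger amount added, r across all genes tested was 0.358.

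The FPKM values gave another direction for some members. On log2(FPKM + 0.1), 20 of the 31 differences were above 0 and 11 below, and the median was 0.066, against 0.021 for all genes tested. The sign was opposite to that of the counts for 8 members, WDR19, CLUAP1, TTC8, BBS9, BBIP1, ARL6, BBS1 and TRAF3IP1. WDR19 had 1.80 and 2.93 FPKM in NK scramble, compared with 2.46 and 1.53 FPKM in NK shADAR1, a difference of -0.23 against 0.52 from counts. Dividing its counts by its FPKM gave an implied transcript length of 3951 and 1624 bases in the control libraries and 4344 and 4300 bases in the knockdown libraries. That is, 1 control library was scaled by a far shorter length, with a ratio of longest to shortest of 2.68. WDR19 was the 1 member with a ratio above 1.5, a size reached by 5.04% of all genes tested. TTC8 (1.49), WDR35 (1.47), IFT172 (1.45) and CLUAP1 (1.43) lay just below that size. The median ratio was 1.10 for the members and 1.06 for all genes.

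**Figure D3:**
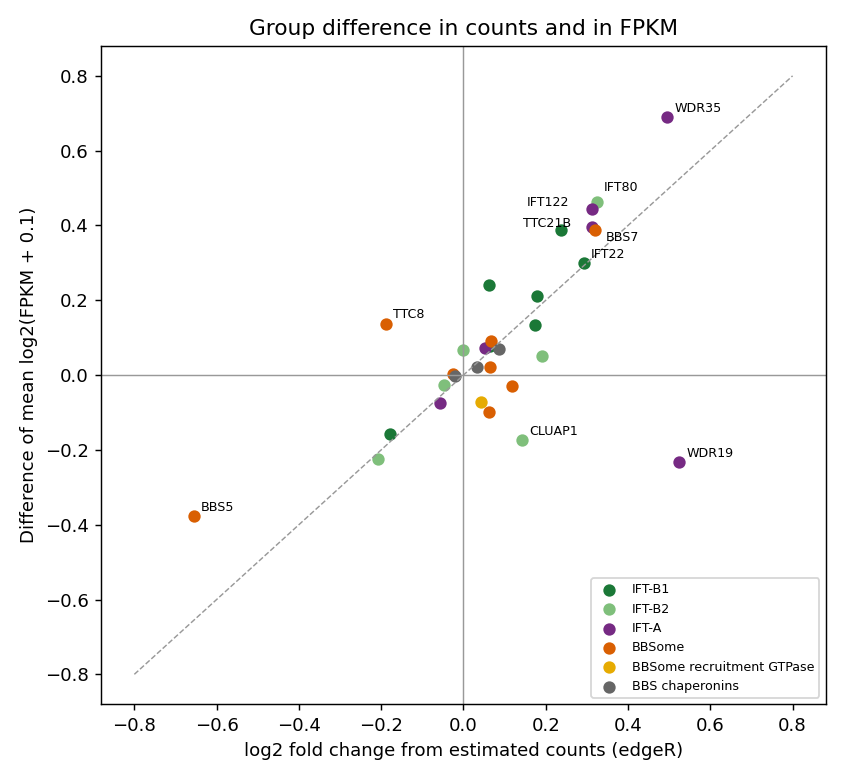
Log2 fold change from counts (horizontal axis) against the log2 difference in FPKM (vertical axis), NK shADAR1 over NK scramble, 1 point per member, with the line of equal values. WDR19 lies furthest from the line, at 0.52 from counts and -0.23 from FPKM.

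In all, 13 members share exonic bases, by GENCODE 29, with another of the genes measured here. Overlaps with genes that have no values in these data were not searched. IFT122 shares up to 144 exonic bases with the DNA repair gene MBD4 on the opposite strand, IFT20 shares 361 with TMEM97, and IFT74 shares 164 with PLAA. BBS1 shares 1663 bases on its own strand with AP002748.4, which was given 48.5 and 0 estimated counts in NK scramble, compared with 10.4 and 0 in NK shADAR1. The values of these members are uncertain to the extent of the reads in the shared stretches.

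A list of 69 other cilium genes, written with earlier results of these data known, was read beside the members. Of the 63 that were tested, 28 had a log2 fold change above 0 and 35 below, with a median of -0.018, and 0 were called. Both NK shADAR1 libraries were higher in 11 and lower in 11 of the 63, where 13.3% and 12.6% of all genes tested showed these patterns. Unadjusted p was under 0.05 in edgeR for 3 of the 63, beside 2.48% of all genes tested, and all 3 were higher in both knockdown libraries. PCM1, the scaffold of centriolar satellites, had 60.4 and 40.9 CPM in NK scramble, compared with 97.7 and 70.2 CPM in NK shADAR1, a log2 fold change of 0.73 (SE 0.25) with an unadjusted p of 0.0155 and an adjusted p of 1.00 in edgeR. KIAA0586 (TALPID3), a centriole protein, stood at 24.2 and 20.3 CPM against 33.8 and 31.8 CPM, a log2 fold change of 0.56 (SE 0.21, unadjusted p 0.0208 in edgeR). RPGRIP1L, of the transition zone at the cilium base, had 6.29 and 4.78 CPM against 9.38 and 8.06 CPM, a log2 fold change of 0.66 (SE 0.28, unadjusted p 0.0399 in edgeR). None of the 3 passed after adjustment over the genes tested.

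Further subunits of the same complexes and the motors gave the following values. IFT25 (HSPB11), which binds IFT27 as a dimer, was listed at 46.1 and 104 FPKM in NK scramble, compared with 53.0 and 92.7 FPKM in NK shADAR1, above every member. It exceeded IFT27 by 7.84 and 13.6 times in the controls and 6.45 and 12.6 times in the knockdown, so partners of the dimer were unequal in RNA in all 4 libraries. TTC26 (IFT56) had a log2 fold change of -0.05. The near-identical paralogs TTC30A and TTC30B (IFT70) share reads, and their estimated counts summed to 79 and 134 in the controls and 128 and 190 in the knockdown. DYNC2H1, the heavy chain of dynein-2, had 36 and 16 estimated counts against 51 and 45, a log2 fold change of 0.93 (SE 0.55, unadjusted p 0.119 in edgeR). In FPKM the groups overlapped, with 0.246 and 0.066 in NK scramble, compared with 0.185 and 0.137 in NK shADAR1. This low level compares with 22.0 to 33.5 FPKM for DYNC2I2, an intermediate chain of the same motor. KIFAP3, the adaptor of kinesin-2, had a log2 fold change of 0.41 (SE 0.21), and its motor subunits KIF3A and KIF3B had 0.05 and -0.09.

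**Figure D4:**
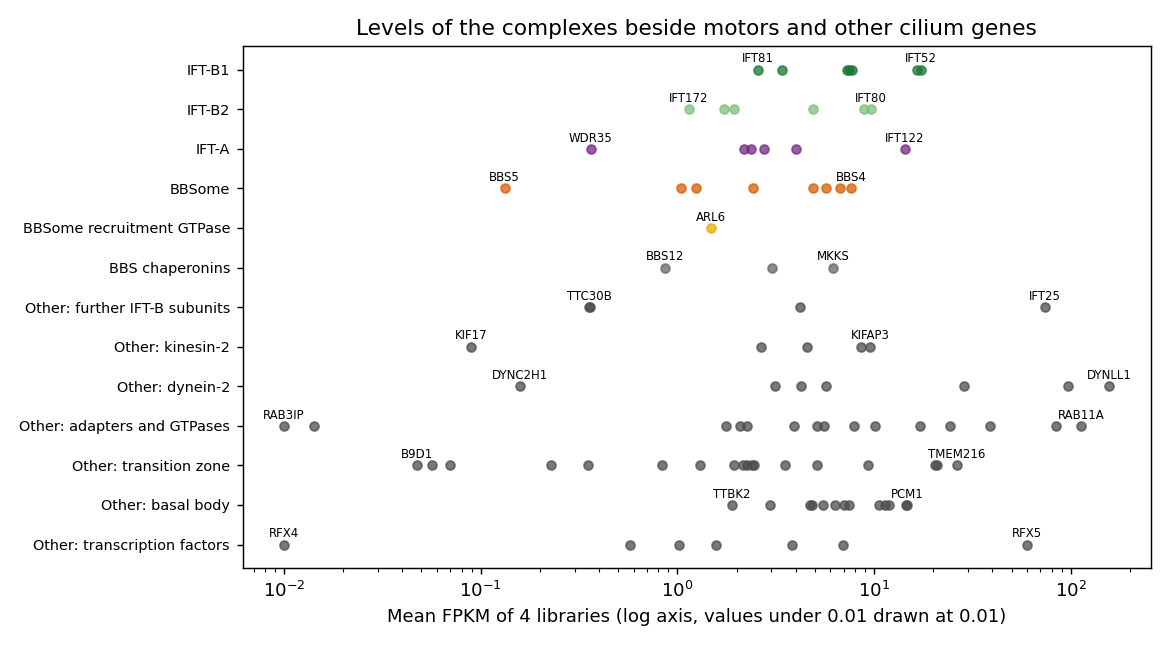
Mean FPKM over the 4 libraries, on a log axis, for the members by complex and for the other cilium genes by group, 1 point per gene. The median of the members is 3.40 FPKM, beside 11.3 FPKM for all genes tested, and IFT25 lies above all 31 members.

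Markers of NK cells and of other cell types were read in the same libraries. All 9 NK markers were tested, at 7.45 to 2081 FPKM. Of 10 genes of multiciliated cells, which assemble many motile cilia, 8 had at most 4 counts in every library, and the list summed to 1.41 and 1.44 FPKM in NK scramble, compared with 1.62 and 1.12 FPKM in NK shADAR1. The main part of it was FOXJ1, the regulator of motile cilia, at 3.28 and 2.75 CPM against 2.52 and 1.93 CPM. Its log2 fold change was -0.44 (SE 0.38). RSPH4A, also tested, lay in the other direction at 0.82 (SE 0.61). It had 14 and 40 estimated counts against 60 and 33, with overlapping groups. Epithelial markers summed to at most 0.27 FPKM. Among T cell markers, CD3G, CD8A and CD8B were at 4 counts or fewer throughout while TRAC stood at 104 to 139 FPKM. CD3D had 10 and 11 estimated counts in NK scramble, compared with 24 and 16 in NK shADAR1, a log2 fold change of 0.96 (SE 0.62). CD4 had 0 and 1 against 0 and 9. The B cell gene MS4A1 and the myeloid genes CD14 and LYZ were at or near 0. The B cell receptor gene CD79A was detected at 1.23 and 0.501 FPKM in the controls and 2.36 and 0.792 FPKM in the knockdown, a level like that of several members. Of the other myeloid genes, CSF1R stood at 0.392 to 0.595 FPKM and the integrin gene ITGAX at 16.7 to 25.8 FPKM.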

How the data were processed

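NK-92 cells transduced with shscramble (NK scramble) or shADAR1 (NK shADAR1) lentivirus were measured by mRNA sequencing, with 2 libraries per group. The authors deposited 1 table of 20323 Ensembl genes with estimated counts, which are not scaled and not all whole. The authors also deposited FPKM, which divides by transcript length and mapped fragments. The submitters' processing notes name fastp 0.18.0, and the aligner, counter, genome build and annotation are not given in the sources used here. Symbols matched 20301 identifiers. The symbol MKKS also fitted 2 further rows with 0 to 4.01 estimated counts, which were left out.

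Estimated counts were rounded, filtered with filterByExpr (minimum count 10), scaled by TMM and tested without covariates by the quasi-likelihood test of edgeR 4.0.16 in R 4.3.3, over 11810 genes. A call required a fold change of 1.5 or more and a Benjamini-Hochberg adjusted p under 0.05. All p-values are two-sided. SE is the size of the log2 fold change over the square root of F. CPM used TMM library sizes, and values ± are SD of 2 libraries. The procedure was tested on simulated data. Alternatives were upper quartile and RLE scaling, DESeq2 1.42.0, other filters (1 count in any library, a mean of 50 counts), unadjusted p-values, limma 3.58.1 on log2(FPKM + 0.1) and log2(FPKM + 1), the replicate number as a block, and each library left out.

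The members and gene lists were chosen with earlier results of these data known. Named with values in every library were the 2 members of highest mean FPKM in IFT-B1, IFT-B2, IFT-A and the BBSome, those with an absolute log2 fold change of at least 0.3 or an unadjusted p under 0.05, those nearest no change, and other cilium genes with an unadjusted p under 0.05. IFT22, MKKS, ARL6 and WDR19's FPKM were added after their values were seen, and IFT57's FPKM is also given outside these rules. Coordinates and exon overlaps are from GENCODE 29, matched by identifier, and promoters from RefSeq. Intervals cover the spread between libraries.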

Additional observations from a re-analysis of the deposited data

How the results depend on the processing

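The count of 0 members called held under every alternative, and their smallest adjusted p was 0.849. Members whose groups did not overlap, in either direction, numbered 5 to 7 where this was counted. The 7 under limma on FPKM included IFT57 and ARL6, with both NK shADAR1 libraries lower. The others were IFT22, IFT80, IFT122, WDR35 and TTC8, with both higher. IFT57 had 1.966 and 1.753 FPKM in NK scramble, compared with 1.627 and 1.523 FPKM in NK shADAR1. ARL6 had 1.590 and 1.471 FPKM against 1.467 and 1.431 FPKM. Over all genes tested, calls rose from 0 to 13 with the replicate block in edgeR, to 213 with the unadjusted p and the fold change, and to 1 to 47 when a library was left out (47 without the first NK scramble library, 2 without the second, 16 without the first NK shADAR1 library and 1 without the second). A group of 1 library was then assumed to vary like the other. With the unadjusted p, 2 other cilium genes were called. With a library left out, the median of the members lay between 0.043, without the second NK scramble library, and 0.14, without the first. It was 0.037 with limma on log2(FPKM + 1). The replicate block in edgeR called 0 members and gave WDR19 an unadjusted p of 0.0463. The labels give no more than shared numbers as a pairing. Over all genes the differences between libraries 1 and 2 correlated between groups at 0.288 or 0.358, by the amount of CPM added. In 9 members the sign held under every alternative that gave a value (12, less 1 for BBS5), and in 22 it did not. Leaving out a library took the log2 fold change across 0 in 19 members. It ran for IFT27 from -0.010 to 0.39, IFT46 from -0.46 to 0.055, IFT52 from -0.095 to 0.24, IFT74 from -0.23 to 0.42, IFT81 from -0.043 to 0.57, IFT88 from -0.080 to 0.47 and IFT20 from -0.10 to 0.0032. It also ran for TRAF3IP1 from -0.33 to 0.41, IFT43 from -0.45 to 0.25, IFT140 from -0.045 to 0.15, WDR35 from -0.13 to 0.93, BBS1 from -0.11 to 0.058, BBS2 from -0.10 to 0.25 and BBS9 from -0.12 to 0.22, and for BBIP1 from -0.41 to 0.50, ARL6 from -0.10 to 0.20, MKKS from -0.049 to 0.11, BBS10 from -0.20 to 0.18 and BBS12 from -0.20 to 0.33. Under limma on log2(FPKM + 0.1) and log2(FPKM + 1), signs turned in 8 members, with WDR19 at -0.23 and -0.17, CLUAP1 at -0.17 and -0.15, BBS9 at -0.098 and -0.056, ARL6 at -0.073 and -0.047, and BBIP1 at -0.028 in both. TTC8 moved to 0.14 and 0.082, BBS1 to 0.0042 and 0.0034, and TRAF3IP1 to 0.066 and 0.037. TRAF3IP1 was also at 0.011 with upper quartile scaling, 0.0078 with a mean of at least 50 counts and 0.042 with the replicate block. BBS5 had no value at a mean of at least 50 counts. Apart from the libraries left out and the lengths behind the FPKM, the cause of these moves was not tested. With 2 libraries per group, depth limits WDR35 and BBS5 most.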
